A study of Rattus norvegicus with 20 samples.

Results

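The genes described here had listed p65 peaks in liver taken before partial hepatectomy and few after it. The members were chosen by these listed peaks: a gene was taken when peaks were listed under its name on at least 4 of the 6 arrays of 0h, on at most 2 of the 6 arrays of 1h and on at most 2 of the 8 arrays of 6h, with both diets counted together. Of 14368 listed genes, 14080 did not meet this rule and the remaining 2.0% were members. The series maps where the p65 subunit of NF-kB sits on promoters of rat liver, with precipitated chromatin hybridised to tiling arrays (ChIP-chip), and its title asks how long ethanol feeding bears on binding during regeneration. All animals were wild-type male Sprague Dawley rats that entered the study at 8 to 10 weeks of age. The ethanol groups received a liquid diet with 36% of calories from ethanol for 5 weeks, and their pair-fed littermates received a diet in which carbohydrate replaced those calories. Every rat then had a 70% partial hepatectomy, in which the left lateral and median lobes are removed. The removed lobes served as the 0h samples and the remnant lobes as the 1h and 6h samples, so lobe and time change together and cannot be told apart. Per diet there were 3 arrays of 0h, 3 of 1h and 4 of 6h. The labels call these biological replicates without naming the animals, so a p-value reflects the spread between these arrays, part of which may be technical.

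NF-kB is a family of dimeric transcription factors held in the cytoplasm of resting cells by IkB proteins. Cytokines such as TNF and IL-1 lead to destruction of IkB, and dimers that contain p65 (the product of Rela) then enter the nucleus and bind promoters and enhancers. In the regenerating liver this pathway is known as one of the first responses of Kupffer cells and hepatocytes to loss of mass, and it restrains cell death. Since whole liver was used, binding in fewer cells and weaker binding per cell cannot be told apart.

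Promoter signal is the log2 ratio of the 2 channels of an array, averaged over the probes of a 500 bp window and set to an array median of 0. The deposited ratio was multiplied by −1 because the listed peaks of each array lay almost wholly below 0 in the deposited table. The numbers that came with the arrays fall into 4 groups of neighbouring values, called runs here, and the sources do not say what they stand for. Run 1 held 5 of the 6 arrays of 0h and no array of another time. Run 2 held ethanol 0h replicate 2 and 2 arrays of 1h, all with the same slide number. Slides and animals named below are likewise read from numbers that came with the arrays, and the labels do not state them. Run 3 held the other 4 arrays of 1h and 7 of 8 of 6h, and run 4 held 1 array of 6h. Peaks were listed under 19.0% to 46.6% of genes on a single array. Signal and peaks report binding and not expression, so the tissue label could not be checked against marker expression. Of 13 listed hepatocyte marker genes 1 had peaks on at least 4 arrays of 0h, beside 11.3% of all listed genes. No marker of any liver cell type was a member, beside 2.0% of all listed genes, and lists this short would hold few members. Nothing about the tissue is read from these counts.

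Promoter sequences from RefSeq (assembly GRCr8, 300 bases around the start of transcription, most of them before it) were found for 81.6% of the members and not for 53 of them, and 6 are printed 5′ to 3′ because the results below refer to them. Rabgap1, a GTPase-activating protein for Rab GTPases, and Zbtb26, a zinc finger protein, start head to head and share 1 tiled promoter, and the same decamer of the NF-kB consensus lies in both sequences. Alg6, a glucosyltransferase that builds the glycan precursor of the endoplasmic reticulum, was among the first 20 members. Il1rl2 (the IL-36 receptor) and Il1f6 (now Il36a, a ligand of that receptor) were both members. Med13, a subunit of the kinase module of Mediator, stands for the GC-rich promoters without a decamer. Capitals mark the decamer.

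Rabgap1 (chr3:41617543-41617842, plus strand): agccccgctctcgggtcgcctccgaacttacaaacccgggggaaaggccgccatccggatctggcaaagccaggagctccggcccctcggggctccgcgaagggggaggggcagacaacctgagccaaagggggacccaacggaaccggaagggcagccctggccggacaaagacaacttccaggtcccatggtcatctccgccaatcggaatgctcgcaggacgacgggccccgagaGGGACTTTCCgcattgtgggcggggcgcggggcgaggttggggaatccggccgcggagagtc
Zbtb26 (chr3:41617657-41617956, minus strand): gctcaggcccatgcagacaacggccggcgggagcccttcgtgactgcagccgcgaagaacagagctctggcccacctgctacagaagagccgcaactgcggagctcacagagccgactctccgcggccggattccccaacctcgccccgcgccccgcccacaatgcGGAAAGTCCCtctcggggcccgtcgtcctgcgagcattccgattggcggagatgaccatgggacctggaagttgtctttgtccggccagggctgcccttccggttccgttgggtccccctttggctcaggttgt
Alg6 (chr5:119520265-119520564, plus strand): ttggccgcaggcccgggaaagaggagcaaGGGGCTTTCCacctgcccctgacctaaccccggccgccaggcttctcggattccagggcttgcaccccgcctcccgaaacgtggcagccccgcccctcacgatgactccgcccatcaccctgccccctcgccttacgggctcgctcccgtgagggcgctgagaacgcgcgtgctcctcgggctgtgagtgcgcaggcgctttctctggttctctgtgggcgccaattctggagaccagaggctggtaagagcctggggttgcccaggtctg
Il1f6 (chr3:27394896-27395195, plus strand): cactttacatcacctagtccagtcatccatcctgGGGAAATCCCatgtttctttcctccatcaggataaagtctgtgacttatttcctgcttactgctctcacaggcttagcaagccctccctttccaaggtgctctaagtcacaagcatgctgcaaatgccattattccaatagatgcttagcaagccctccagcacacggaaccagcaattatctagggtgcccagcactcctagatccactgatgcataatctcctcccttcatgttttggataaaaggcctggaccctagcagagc
Il1rl2 (chr9:50087302-50087601, plus strand): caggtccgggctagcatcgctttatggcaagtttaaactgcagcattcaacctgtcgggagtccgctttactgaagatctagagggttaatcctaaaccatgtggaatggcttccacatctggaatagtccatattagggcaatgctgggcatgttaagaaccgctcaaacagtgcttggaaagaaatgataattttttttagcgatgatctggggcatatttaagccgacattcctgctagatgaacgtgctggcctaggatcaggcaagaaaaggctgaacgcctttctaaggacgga
Med13 (chr10:71673852-71674151, minus strand): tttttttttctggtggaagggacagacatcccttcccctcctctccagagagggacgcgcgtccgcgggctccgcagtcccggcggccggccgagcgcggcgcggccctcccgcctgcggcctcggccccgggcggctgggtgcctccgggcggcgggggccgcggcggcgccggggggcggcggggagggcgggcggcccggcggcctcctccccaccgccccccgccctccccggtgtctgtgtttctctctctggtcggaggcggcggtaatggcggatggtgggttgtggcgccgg

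The consensus decamer, searched on both strands, was found in 19 of these member promoters (8.09%), beside 8.56% of the promoters of all listed genes that had a sequence. Members with a decamer included Cdc27, Kbtbd8, Csnk2a1 and Prdx3 in addition to those printed. None of the 19 had its signal window over the promoter sequence, and only 25 members with a sequence did, so the printed bases mostly lie beside the bound window and not in it. For Rabgap1 the window had its middle at 556 bp from the listed start, and for Alg6 at 600 bp. A match is a string of letters and does not show binding there.

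Membership rested for most genes on the lowest number of arrays allowed. Peaks were listed on exactly 4 arrays of 0h for 211 members (73.3%), on 5 for 65 and on all 6 for 12. After hepatectomy few of them were without any peak: 10 members (3.47%) had none on the 14 later arrays, 60 had 1, 109 had 2, 70 had 3 and 39 had 4. At 1h alone, 140 members had the 2 peaks that the rule permits. The rule thus selected a thinning of peaks more often than their complete disappearance, and "then lost" describes 10 gene names literally. These were Il1rl2, Slc25a27, RGD1305045 (now Emc7), Vamp7, RGD1303272 (now Mmadhc), Idh3a, Cnot4, Wasl, Olr20 and Tmed3, named here after their values were seen. Slc25a27 shares a tiled promoter with Cyp39a1, also a member, under whose name a later peak was listed. For Slc25a27 the loss therefore holds only for peaks listed under its own name. In all, 1618 genes had peaks on at least 4 arrays of 0h, and members were 17.8% of these. Of the 1618, 944 had peaks on more than 2 arrays of 1h, 931 on more than 2 arrays of 6h, and 545 on both.

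Array by array, the members with a listed peak numbered 195 and 239 on carbohydrate 0h replicates 1 and 3, where 19.0% and 36.1% of all genes had one, and made up 89.6% of members on replicate 2, where 26.2% of all genes had one. On the ethanol 0h arrays their number was 221, 145 and 183, beside 22.2%, 34.8% and 28.0% of all genes. At 1h the counts were 43, 15 and 19 in carbohydrate, beside 28.7%, 31.3% and 34.1% of all genes, and 85, 75 and 149 in ethanol, beside 35.1%, 44.4% and 46.6%. At 6h they were 8, 33, 40 and 42 in carbohydrate, beside 22.3%, 39.4%, 35.8% and 38.5%, and 36, 29, 30 and 40 in ethanol, beside 23.9%, 20.3%, 31.4% and 31.0%. The lowest 0h count, 145, belonged to ethanol 0h replicate 2, the array of run 2. It fell below the 149 of ethanol 1h replicate 3, so even the counts that the rule fixed overlapped between 0h and 1h.

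**Figure D1:**
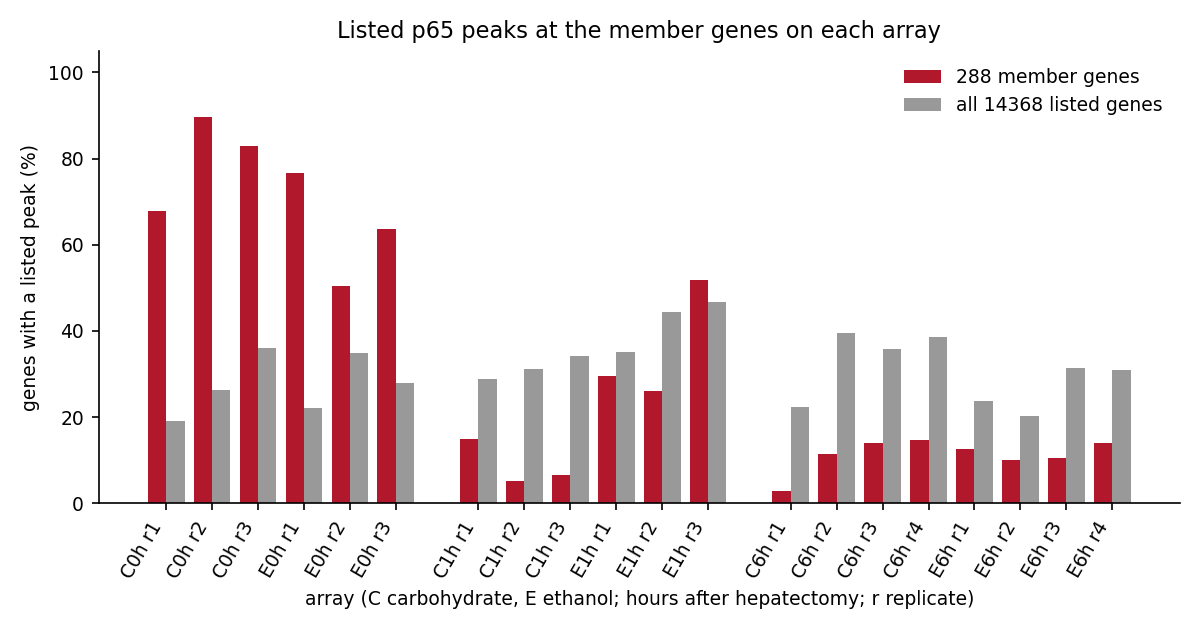
Percent of the members (red bars) and of all 14368 listed genes (grey bars) with a listed peak on each of the 20 arrays, ordered by time and diet. Members, chosen by these peaks, lie above all genes on every 0h array and below them on every later array except ethanol 1h replicate 3, where 51.7% of members and 46.6% of genes had a peak.

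A listed peak of a member was of ordinary strength. On the 0h arrays the median member peak stood between percentile 38.0 and percentile 60.3 of the scores of all peaks on the same array. The authors' false discovery rate (FDR, the share of false peaks expected at that score) of member peaks at 0h had medians from 0.0609 to 0.121, and the lists ran up to 0.19961. With peaks of FDR 0.05 or less alone the rule gave 85 genes, of which 18 were among the members. The lowest score listed was 0.220 to 0.277 on the run 1 arrays and 0.456 on ethanol 0h replicate 2. The median score of all peaks also differed, 0.359 to 0.453 on the run 1 arrays and 0.724 on ethanol 0h replicate 2. The peak caller is not given, so whether a cutoff kept weaker peaks off that list is not known. On the 14 later arrays the lowest score was 0.244 to 0.436, with the highest values, 0.436 and 0.385, on the 1h arrays of run 2. The part of the lowest score in the later absence of peaks was not tested.

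The signal of the members followed the peaks in part. Since the rule chose the genes by time, the differences between times are given as a description with no test. The members lay at 278 promoters, and the median member level was 0.36 at 0h, 0.24 at 1h and 0.15 at 6h, beside 0.15, 0.24 and 0.21 over all 14540 promoters. The mean later signal was below the mean 0h signal at 243 member promoters (87.4%), beside 36.0% of all promoters. The median of later minus 0h was −0.17 for members and 0.06 for all promoters, on the log2 scale. All 6 arrays of 0h lay above all 14 later arrays for 2 member promoters (0.719%), beside 0.0206% of all promoters. Most members therefore overlapped between the times in signal.

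Both of these promoters changed by about the same amount. RGD1564614, now Cfhr4, a complement factor H related gene, had 0h signals of 0.37, 0.35 and 0.59 in carbohydrate and 0.28, 0.36 and 0.30 in ethanol. Its later signals ran from −0.39 through a median of 0.07 to 0.27, just under the lowest 0h value. Dpysl3, a cytoskeletal protein of growing axons, had 0h signals of 0.30, 0.34 and 0.35 in carbohydrate and 0.32, 0.34 and 0.27 in ethanol. Its later signals ran from −0.32 to 0.22.

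The level of the members relative to all promoters also followed the run. On all 8 arrays of runs 1 and 2, including both 1h arrays of run 2, the median of the members was above the median of all promoters, by 0.09 to 0.29. On 11 of the 12 arrays of runs 3 and 4 it was below, and the exception was ethanol 1h replicate 3, by 0.08. Within 1h, the members were lower on the 4 arrays of run 3 than on the 2 arrays of run 2, with a median difference of −0.14, beside −0.0079 over all promoters. Both run 2 arrays of 1h exceeded all 4 run 3 arrays at 78 member promoters (28.1%), beside 19.0% of all promoters. Time and run cannot be told apart for the 5 arrays of run 1.

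**Figure D2:**
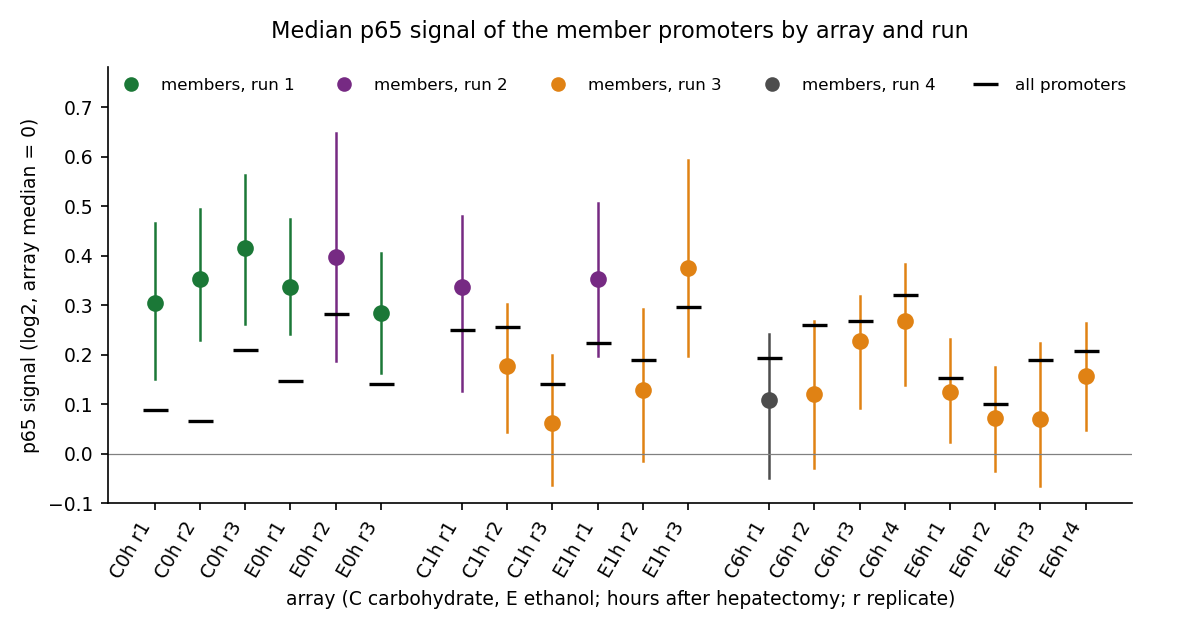
Median p65 signal of the 278 member promoters on each array (dots coloured by run, with bars from the lower to the upper quartile) and median of all 14540 promoters (black dashes), on the log2 scale with each array's probe median at 0. The dots, of promoters chosen by peaks at 0h, lie above the dashes on every array of runs 1 and 2. They lie below them on every array of runs 3 and 4 except ethanol 1h replicate 3.

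Numbers that came with the arrays also pair 4 of the 0h arrays with a later array of the same animal number. In 3 of these pairs the arrays were of different runs, and members fell while all promoters rose. From carbohydrate 0h replicate 2 to carbohydrate 1h replicate 1 the median change of members was −0.06, beside 0.17 over all promoters. From carbohydrate 0h replicate 3 to carbohydrate 6h replicate 2 it was −0.29, beside 0.05, and from ethanol 0h replicate 3 to ethanol 6h replicate 1 it was −0.14, beside 0.01. The fourth pair, ethanol 0h replicate 2 and ethanol 1h replicate 1, shared its slide and run as well as the animal number. There the members changed by −0.05 and all promoters by −0.05, and 62.6% of member promoters were lower at 1h, beside 60.4% of all. Against the carbohydrate 1h array on the same slide the members changed by −0.10 and all promoters by −0.03. Ethanol 0h replicate 2 exceeded both 1h arrays of its slide at 144 member promoters (51.8%), beside 41.9% of all promoters. In peaks, the pair of ethanol 0h replicate 2 and ethanol 1h replicate 1 lost 55.2% of its 0h member peaks, beside 31.2% over all genes. The other 3 pairs lost 84.2% to 88.3%, beside 48.6% to 70.5%. The rule itself requires the loss in peaks, and it is no test.

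The first 20 members were those with a peak on the most 0h arrays and then on the fewest later arrays. They fall into regulators of transcription, enzymes of metabolism, proteins of RNA and protein turnover, and a mixed rest. Rybp, a partner of the Polycomb repressive complex that marks histone H2A, lost the most signal of all members. Its 0h signals were 0.79, 1.22 and 1.11 in carbohydrate and 0.86, −0.07 and 0.66 in ethanol. The later signals ran from −0.34 through a median of 0.07 to 0.37, and the change was −0.70. The value of −0.07, from the run 2 array, lay among the later values, and the other 5 arrays of 0h exceeded every later array. The bound window of Rybp, chr4:135152672-135153158 in the coordinates of the files, had its middle at 512 bp from the listed start, inside the gene.

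Pparg encodes the nuclear receptor that governs fat storage, and Ppargc1a encodes a coactivator of gluconeogenesis and mitochondrial growth. Pparg had 0h signals of 0.56, 0.57 and 0.46 in carbohydrate and 0.49, 0.58 and 0.24 in ethanol, and later signals from −0.03 through 0.23 to 0.64. Its change of −0.23 left 7 of 14 later arrays above the lowest 0h array. Ppargc1a had 0h signals of 0.20, 0.34 and 0.26 in carbohydrate and 0.49, 1.11 and 0.28 in ethanol, and its 6h signals lay between −0.52 and 0.06. At 1h its highest signal was 0.89, on the ethanol array that shares a slide with the 0h value of 1.11. Both of the highest Ppargc1a values thus came from run 2 and 1 animal number.

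Myst2, now Kat7, encodes a histone acetyltransferase that licenses replication origins. Its mean signal was 0.60 ± 0.19 (SD, n = 6) at 0h and 0.26 ± 0.26 (SD, n = 14) later, and ethanol 1h replicate 3, at 0.91, exceeded every 0h array. Arid4b, part of a Sin3 histone deacetylase complex, starts next to Ggps1, which makes geranylgeranyl diphosphate for protein prenylation, and both names refer to 1 tiled promoter. That promoter had 0h signals of 0.54, 0.54 and 0.40 in carbohydrate and 0.24, 0.57 and 0.39 in ethanol. Its 6h signals stayed between −0.09 and 0.15, below every 0h array, whereas 3 of the 1h arrays reached 0.49 to 0.58.

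Il1rl2, the IL-36 receptor, was the member with the most 0h peaks and no later one. Its 0h signals were 0.36, 0.46 and 0.69 in carbohydrate and 0.56, 0.60 and 0.53 in ethanol. The later signals ran from −0.37 through −0.06 to 0.49, a change of −0.55, and the 2 arrays above the lowest 0h value were the 1h arrays of run 2, at 0.49 and 0.42. The other 12 later arrays lay at or below 0.17. Its window, chr9:39491102-39491596, was centred at −837 bp from the start, upstream of the gene. The ligand gene Il1f6 behaved otherwise in signal. Its mean was 0.07 ± 0.22 (SD, n = 6) at 0h and 0.20 ± 0.27 (SD, n = 14) later. Only 1 array had a 0h peak over the window used, and its other 0h peaks lay elsewhere in the promoter.

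Wwp1, a ubiquitin ligase of the HECT type, had the highest 0h mean among members with peaks on all 6 arrays. Its 0h signals were 0.47, 0.80 and 0.84 in carbohydrate and 0.52, 0.77 and 0.59 in ethanol. The later signals ran from −0.21 through 0.16 to 0.62, and 2 of the 14 exceeded the lowest 0h array, both of them ethanol 1h arrays. Smg6, the endonuclease of nonsense-mediated mRNA decay, shares a promoter with Srr. It fell from 0.56 ± 0.10 (SD, n = 6) to 0.29 ± 0.25 (SD, n = 14), with 1h arrays from 0.34 to 0.81 and 6h arrays from −0.04 to 0.47. At Utp18, of the complex that matures small ribosomal subunit RNA, the mean of the window hardly changed, with 0.19 ± 0.24 at 0h (SD, n = 6) and 0.18 ± 0.18 later (SD, n = 14).

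Among enzymes, Hadha encodes the alpha subunit of the mitochondrial trifunctional protein of fatty acid oxidation and faces Hadhb across 1 promoter. Its 0h signals were 0.51, 0.32 and 0.09 in carbohydrate and 0.08, 0.34 and 0.03 in ethanol, and its later signals ran from −0.35 to 0.39. Xdh, which makes uric acid, had 0h signals between −0.04 and 0.30, a change of −0.13 from 0h to later, and the highest value of all 20 arrays, 0.84, came from carbohydrate 1h replicate 1, where no peak was listed for it. Akr1cl2, now Akr1e2, an aldo-keto reductase, had 0.15 ± 0.18 (SD, n = 6) at 0h and 0.19 ± 0.19 (SD, n = 14) later, a rise of 0.035. Alg6 changed by −0.33, and its later signals above 0.5, at 0.64 and 0.72, were again the 1h arrays of run 2. At Akr1cl2 the listed peaks and the mean of the window thus did not move together.

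The remaining members of the first 20 were Ttc25 (now Odad4, a docking protein of ciliary dynein), Kif18b (a kinesin of the mitotic spindle), Gnaq (the alpha subunit of the G protein Gq), Cabp5 (a calcium-binding protein of the retina), Ankfy1 (an endosomal Rab5 effector) and Erc1 (a scaffold known to bind the IkB kinase complex). Kif18b changed by −0.31, with 6h signals from −0.29 to 0.20 that lay below its lowest 0h value of 0.32. Gnaq changed by −0.21, Cabp5 by −0.36, Ankfy1 by −0.30 and Ttc25 by −0.12. Erc1 rose by 0.07, from 0.14 ± 0.20 (SD, n = 6) to 0.20 ± 0.20 (SD, n = 14), although peaks were listed on all 6 arrays of 0h. Only 3 of these 6 peaks overlapped its window.

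**Figure D3:**
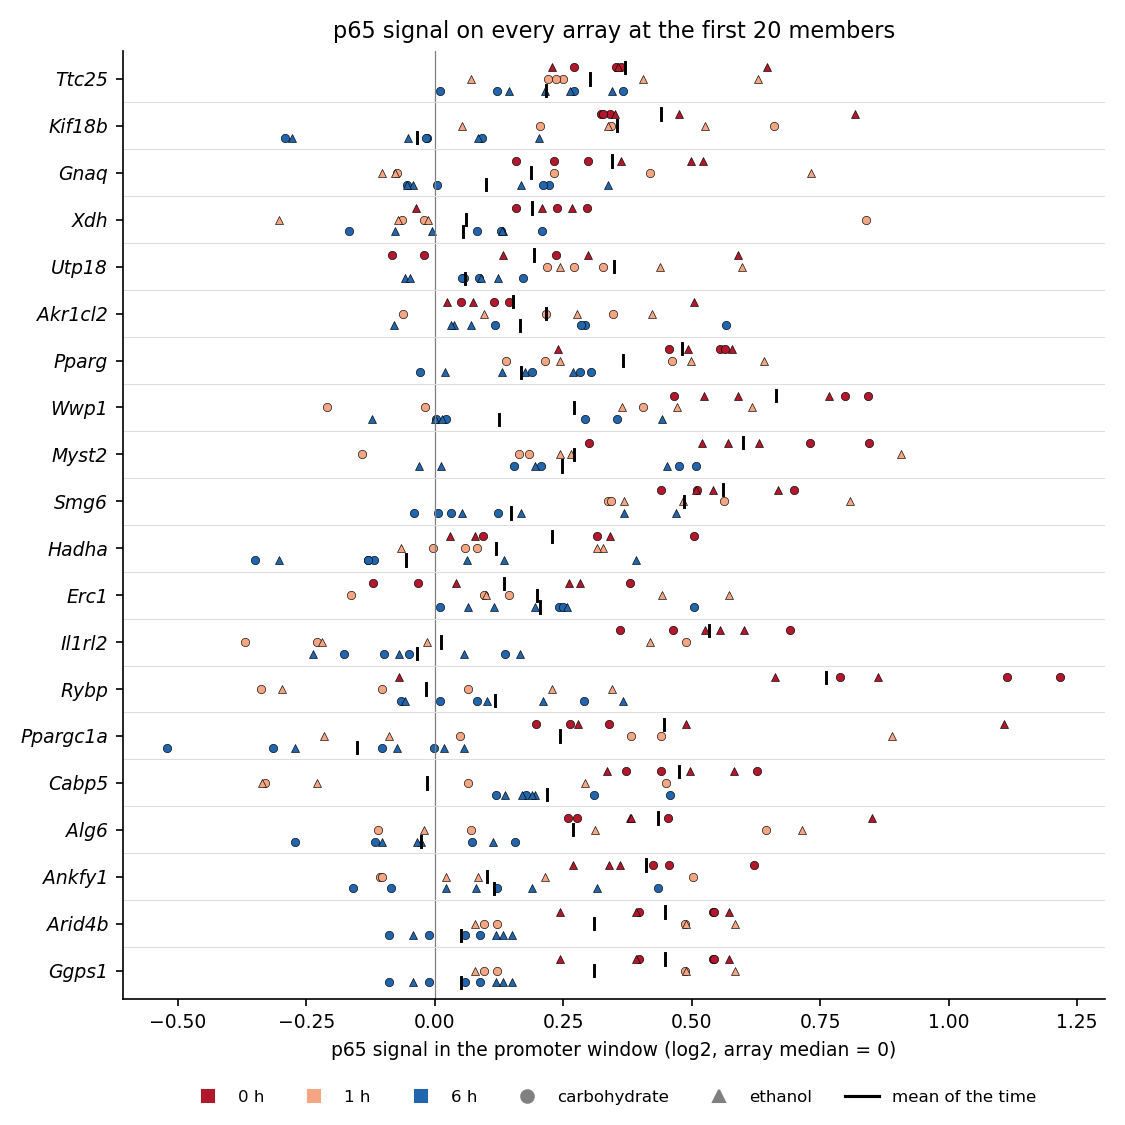
p65 signal in the promoter window of the first 20 members on all 20 arrays (log2, array median at 0), with 0h in red, 1h in orange and 6h in blue, circles for carbohydrate, triangles for ethanol and black ticks for the mean of each time. Rybp, Il1rl2 and Wwp1 have most 0h points to the right of the later ones, and Utp18, Akr1cl2 and Erc1 do not; Arid4b and Ggps1 share 1 promoter and so the same points.

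Outside the first 20, the largest decreases in signal were at RGD1304693 (now Mms22l, which helps to restart stalled replication forks), at −0.59, Mzf1 (myeloid zinc finger 1), at −0.56, and Med13, at −0.53. They are named here after their values were seen. At Mms22l and Mzf1 the 1h arrays of run 2 held 0.60 and 0.78, and 0.93 and 0.88, and the other 1h arrays lay at or below 0.27 and 0.07. Med13 had 0h signals of 0.84, 0.55 and 1.19 in carbohydrate and 0.58, −0.02 and 0.29 in ethanol, and no later array above 0.24.

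By role, the members were a mixed set. The 10 groups that follow were made by hand after the names were known, hold 153 of the members and carry no test. The rule chose the genes by time, and 87.4% of all member promoters were lower later, beside 36.0% of all promoters. The counts per group are therefore no trait of a group. Chromatin regulators, 12 members such as Rybp, Bmi1, Ash1l, Chd1 and Kat7, were lower later at 12 of 12 promoters, with a median change of −0.26. Genes of RNA processing and translation, such as Hnrnph3, a splicing regulator (−0.47), and Cnot4, of the deadenylase complex (−0.18), were lower at 16 of 16, with a median of −0.23. Vesicle traffic genes, among them Vamp7, a SNARE of late endosomes (−0.27), and Rab6a, a Golgi GTPase (−0.23), were lower at 13 of 14, with a median of −0.26. Transcription factors and coactivators were lower at 13 of 15, with a median of −0.23, and Runx1, a regulator of blood cell formation, was among the 2 that were not, at 0.09.

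Signalling genes were lower at 14 of 15 promoters, with a median of −0.21, among them Acvr1c, a receptor of the TGF-beta family (−0.46), and Ptch1, the Hedgehog receptor (−0.42). The 25 members of metabolism and mitochondria were lower at 20 of 24 promoters, with a median of −0.17. Mat2a, which makes S-adenosylmethionine, changed by −0.28, and Idh3a, of the citric acid cycle, by −0.19. Ubiquitin enzymes and related modifiers were lower at 14 of 18, with the smallest median, −0.11. Repair and replication genes were lower at 10 of 12, with a median of −0.16, and Atm, the kinase of double-strand breaks, was an exception at 0.10. Genes of neurons, muscle and the senses, which liver barely uses, were lower at 15 of 19, with a median of −0.18, and the 7 immune, complement and clotting genes at 5 of 7, with −0.17. The group medians thus ran from −0.26 to −0.11, around the −0.17 of all members.

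No gene of the NF-kB target list was a member. Of 35 listed genes of the NF-kB target list 2 had peaks on at least 4 arrays of 0h, beside 11.3% of all listed genes. Immediate early genes (34 listed), acute phase and plasma protein genes (27), cell cycle and replication genes (29), ubiquitin ligases and proteasome genes (30), Wnt and growth factor genes (31) and apoptosis genes (19) had 0 members as well. At a share of 2.0% over all genes, lists of this size would hold few members. The chromatin and Polycomb list held 2 of 26 (Rybp and Bmi1), the lipid list 2 of 30 (Hadha and Pparg), the ribosome and translation list 2 of 30 (Eef1a1 and Eif4e) and the alcohol and xenobiotic list 1 of 30 (Arnt). Bmi1, a core Polycomb subunit, changed by −0.02 only, while Rybp lost the most. Arnt, the partner of the Ah receptor, changed by −0.23, with 0h signals of 0.52, 0.54 and 0.30 in carbohydrate and 0.10, 0.67 and 0.34 in ethanol. Eef1a1, which carries tRNA to the ribosome, changed by −0.11, and Eif4e, which binds the mRNA cap, by −0.15. Among gene families, 5 of 1186 olfactory receptors were members (0.422%), 5 of 299 solute carriers and 2 of 56 cytochromes P450.

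Genes on either side of the thresholds were taken by their mean 0h signal. Just inside, with 4 arrays of 0h, the highest mean 0h signals were those of Phf20l1, a reader of methylated histones (0.64 at 0h, 0.31 later), Rock2, a serine/threonine kinase of the actin cytoskeleton (0.64 and 0.32), and Seli, now Selenoi (0.57 and 0.13). Just outside, 491 genes had 3 arrays of 0h and met both later limits. Of these Prkaa2, a catalytic subunit of AMP kinase, had no later peak, and its signal went from 0.72 ± 0.09 (SD, n = 6) to 0.16 ± 0.23 (SD, n = 14), a larger difference than that of most members. Golga5 went from 0.58 to 0.25 and Fam83b from 0.58 to 0.20. A further 195 genes missed by 1 array at 1 later time, among them Nckap1 (0.79 and 0.46), Nxf1 (0.71 and 0.30) and Prpsap2 (0.67 and 0.40). Axin1, Dpf1, Ahr and Cul3, whose promoters were named for a loss of signal in earlier results of these data, were not members. Axin1, Dpf1 and Ahr kept peaks on 5, 5 and 4 arrays of 1h, and Cul3 had peaks on 3 arrays of 0h.

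The diets were compared with limma at each time. The rule did not use this comparison, because it counts both diets together, but its limits on peaks may bear on the diet differences of members. At 0h, 0 of 14540 promoters differed between ethanol and carbohydrate at a limma adjusted p under 0.05 (0.0%), so 0 members did, and 1150 promoters (7.91%), 31 of the 278 member promoters among them, had an unadjusted p under 0.05. The median difference, ethanol minus carbohydrate, was −0.02 for members and 0.06 for all promoters. The largest decreases were at Med13, by −0.57 (SE 0.16), and at Ppm1a, a protein phosphatase, by −0.57 (SE 0.18), each with a limma adjusted p of 0.604. Ppm1a had 0h signals of 0.95, 0.79 and 0.75 in carbohydrate and 0.73, −0.18 and 0.22 in ethanol. The largest increases were at Tmem126a, of mitochondrial complex I assembly, by 0.48 (SE 0.18), and Commd10, of a family known to bind NF-kB subunits, by 0.47 (SE 0.24). Without ethanol 0h replicate 2 these became 0.33 and 0.25, Ppm1a became −0.35 and Med13 −0.42. In the window with the highest mean the difference at Med13 was −0.043.

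At 1h the peak lists had more members in ethanol on each of the 3 slides that held both diets, in the counts given above. The rule itself limited each member to 2 of the 6 arrays of 1h, so these counts come from the values that chose the members and nothing is read from them. In signal 0 of 14540 promoters differed at a limma adjusted p under 0.05, and 1195 (8.22%), 40 of them member promoters, had an unadjusted p under 0.05. With the replicate number, which at 1h is also the slide, as a block on the 1h arrays, 2 promoters passed, and 0 of them were of members. The median difference was 0.11 for members and 0.03 for all promoters.

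Cdc73, a subunit of the PAF1 complex that travels with RNA polymerase, was the member nearest to a call at 1h, at 0.57 (SE 0.13, limma adjusted p = 0.284). Its 1h signals were −0.12, −0.35 and −0.29 in carbohydrate and 0.27, 0.23 and 0.44 in ethanol. With the run as a term of the model the limma adjusted p was 0.0265, and without ethanol 1h replicate 1 it was 0.0359. Other settings moved it away from a call: 0.818 after scaling the arrays to equal spread, 0.877 after quantile normalization and 0.999 without ethanol 1h replicate 3. In the window with the highest mean the difference at Cdc73 was 0.19 (limma adjusted p = 0.676). Trim41, a ubiquitin ligase, differed by 0.71 (SE 0.17, limma adjusted p = 0.363), from 0.13, 0.30 and 0.14 in carbohydrate to 0.71, 0.92 and 1.08 in ethanol. Without ethanol 1h replicate 1, 179 promoters passed, 6 of them of members: Rfx3, Trim41, Ube2g1, Cdc73, Spata1 and LOC302495, all higher in ethanol. The largest decreases were at Xdh, by −0.38 (SE 0.17), and at the olfactory receptor gene Olr59, by −0.32 (SE 0.17). Without carbohydrate 1h replicate 1 these became −0.09 and −0.11, and without ethanol 1h replicate 2 the one at Olr59 was −0.21.

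The diets were compared at 6h in the same way. The rule limited the 6h peaks of each member, which may bear on how many members differ by diet. Nothing is therefore read from the number of members below. On simulated data the fit for diet at 6h recovered 37% of changes of 0.4, so differences of this size could be missed. Of 14540 promoters 0 passed at a limma adjusted p under 0.05, and 1350 (9.28%), 6 of them member promoters, had an unadjusted p under 0.05. The median difference was −0.07 for members and −0.09 for all promoters. The largest differences were at Kcnc2, a potassium channel (−0.36, SE 0.15), Zfp330 (−0.31, SE 0.18), Usp32, a deubiquitinase (0.33, SE 0.17), and Rab30, a Golgi GTPase (0.31, SE 0.13), with limma adjusted p from 0.522 to 0.565. Without ethanol 6h replicate 2 the one at Zfp330 was −0.20. With arrays weighted by their quality the 6h comparison gave 2380 promoters, 24 of them of members, so its count rests on that choice. Over all times 0 of 14540 passed, and 396 (2.72%), 4 of them member promoters, had an unadjusted limma p under 0.05. The largest members were RGD1304704 (0.24, SE 0.09) and Thap4 (0.20, SE 0.09) upward and Med13 (−0.17, SE 0.09) and Nfatc2ip (−0.17, SE 0.07) downward.

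The last test asked whether the change from 0h to later differed between the diets. It did for 0 of 14540 promoters at a limma adjusted p under 0.05, and 1515 (10.4%), 36 of them member promoters, had an unadjusted p under 0.05. The median of the difference, ethanol minus carbohydrate, was 0.05 for members and −0.10 for all promoters. In carbohydrate the members changed by −0.17 at 1h and −0.18 at 6h, and in ethanol by −0.05 at 1h and −0.23 at 6h. The promoters of all genes changed by 0.08, 0.13, 0.05 and −0.02 in the same order. Rybp differed by 0.70 (SE 0.23) and Ppm1a by 0.66 (SE 0.22), each with a limma adjusted p of 0.430, and both were lower in ethanol at 0h. Without ethanol 0h replicate 2 these became 0.42 and 0.44. In the other direction Ildr1 differed by −0.58 (SE 0.26) and Gna12 by −0.55 (SE 0.22). Without carbohydrate 0h replicate 1 the one at Ildr1 was −0.35. The median SE of 0.17 sets what this comparison could resolve.

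Members had promoters with a higher median share of G and C than all listed genes. So did the genes with peaks on at least 15 of the 20 arrays, but not the genes taken by a like rule for 6h. The median was 61.7% for the members with a sequence, 57.7% for all listed genes, 60.7% for the 262 genes with peaks on at least 15 of the 20 arrays and 42.7% for the 1435 genes taken by a like rule for 6h (at least 5 of 8 arrays at 6h and at most 2 of 6 at 0h and at 1h). The observed over expected ratio of CpG dinucleotides was above 0.6 in 75.3% of member promoters, beside 54.6% of all and 69.4% of the genes with peaks on at least 15 arrays. The hexamer GGGCGG, the core of the Sp1 site, occurred on either strand in 62.6% of members and 49.3% of all, and CCGGAA, the core of ETS sites, in 28.5% and 21.4%. The AP-1 site TGACTCA occurred in 1.28% and 3.91%, and TATAAA in 10.6% and 12.3%. In the genes with peaks on at least 15 arrays the shares, in the same order of motifs, were 55.1%, 20.4%, 4.63% and 11.1%. The share of genes that were members rose from 0.940% below 40% GC to 3.14% at 70% GC and over. Other measures moved with it: peaks on at least 4 arrays of 0h were listed for 8.12% of genes in the lowest GC range and 19.8% in the highest. Peaks on at least 4 arrays of 1h were listed for 2.31% and 33.9%, whereas peaks on at least 5 arrays of 6h were listed for 61.1% and 15.5%. The part of base composition in the membership was not tested.

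**Figure D4:**
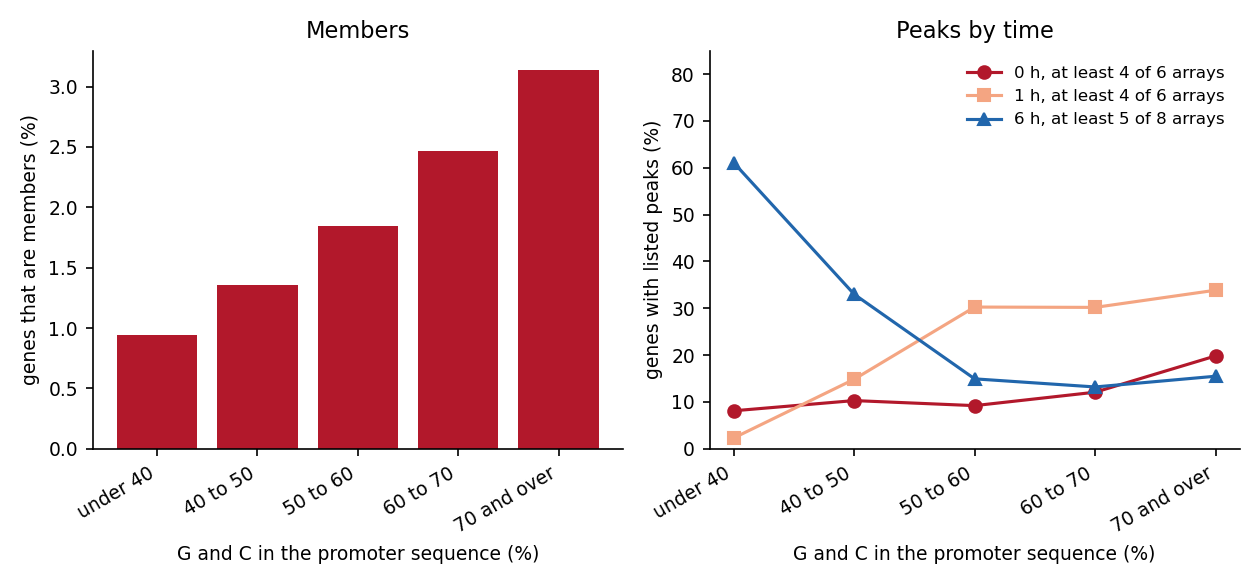
Left, percent of listed genes that were members by the percent of G and C in the RefSeq promoter sequence; right, percent of genes with listed peaks on at least 4 of 6 arrays of 0h, at least 4 of 6 of 1h and at least 5 of 8 of 6h, over the same ranges. From the lowest to the highest GC range members rise from 0.940% to 3.14% and the genes with 1h peaks from 2.31% to 33.9%. The genes with 6h peaks fall from 61.1% to 15.5%.

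Counted once for each gene and array, the 1241 member peaks at 0h had a median distance of 948 bp from the listed start. Of these, 14.7% lay within 500 bp and 74.5% lay upstream. Over the 0h peaks of all listed genes, counted likewise, these values were 964 bp, 19.2% and 72.8%. Over the 6h peaks of the genes taken by the like rule for 6h they were 585 bp, 41.9% and 49.8%. Peak lengths did not set members apart, with a median of 539 bp in members and over all 0h peaks. Of the 278 member promoters 41 (14.7%) carried more than 1 gene name, beside 8.76% of all named promoters. In 10 of these 2 names were members, so the member names stand for 278 sites. By comparison, the mirror rule gave 1640 genes for 1h, and 262 genes had peaks on at least 15 of the 20 arrays.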

How the data were processed

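NF-kB p65 was measured on 20 NimbleGen promoter arrays of rat liver. Groups and replicate numbers came from the sample titles, and run, slide and animal numbers from identifiers that came with the arrays (4 runs, 11 slides, 16 animal numbers). The authors' deposited table gave 1 log2 ratio for each of 713735 probes and each array. Cy5 held p65-precipitated and Cy3 input DNA per the channel labels, whereas the labelling protocol names IgG-precipitated DNA, and the sources used here do not state direction, centring or scale of the log2 ratio. The authors' peak lists, 1 per array, gave, per the file headers, a peak score and an FDR (a kind of q-value or adjusted p-value). The peak caller and the rat genome build are not given in the sources used here, so coordinates are printed as the lists have them.

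Members were found by name in the peak lists. The members, gene lists, rule for named genes and alternatives were chosen with earlier results of these data known. Values were multiplied by −1 and centred on each array's median. Tiled regions ended at gaps over 1000 bp. Each region's signal was the mean of the 500 bp window, with at least 4 probes, that listed peaks of the most arrays overlapped (ties by the highest mean). Of 14723 regions 14540 had such a window. The diets were compared with limma 3.58.1 in R 4.3.3 (1 fit of 6 group means, eBayes with trend, two-sided, Benjamini-Hochberg over all promoters, threshold 0.05). The other steps used pandas 2.3.3, numpy 2.4.6 and scipy 1.17.1 under Python 3.11.15, and figures matplotlib 3.10.9. The fit was tested on simulated data: when 200 of 14540 promoters were changed, that for diet at 1h recovered 16% of changes of 0.4 and 85% of changes of 0.8. For the diet difference in the change from 0h to later it recovered 10% and 65%. The simulated noise was independent between arrays, whereas fits with a block gave a correlation of 0.25 within slides and 0.15 within animal numbers. These shares may therefore not hold for the arrays themselves.

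At 1h arrays with the same replicate number shared a slide number, and their deviations correlated at 0.57, 0.21 and 0.31. Unlike numbers among replicates 2 and 3 correlated as much, at 0.22 and 0.34, and unlike numbers that included replicate 1 at −0.47 to −0.31. The pairing at 1h therefore rests on the slide numbers and not on these correlations. A block on the replicate number of the 1h arrays was an alternative added after seeing the data. Of the gene names 14192 of 14368 matched the reference table (assembly GRCr8). Named genes were the first 20 members, the 2 members with the largest diet difference each way where none was called, members in the gene lists, genes next to the thresholds, and 5 genes named for a loss of signal in earlier results. The 18 gene lists comprised pathways, liver cell type markers and a list of testis and neuronal genes for comparison. The number of arrays limits the precision, and depth has no counterpart on these arrays.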

Additional observations from a re-analysis of the deposited data

Results flagged for a closer look

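Among the 4 arrays of each 6h group, 84 sets of values of the named members were checked for 1 array far from the other 3, and 3 were marked, where chance marks about 1 in 20. At Hadha the signal on carbohydrate 6h replicate 2 was −0.35, and the nearest of the other carbohydrate 6h arrays was −0.13. At the promoter shared by Arid4b and Ggps1 the signal on ethanol 6h replicate 3 was −0.042, and the nearest of the other ethanol 6h arrays was 0.12, which counts under both names. No difference between the diets in the change over time passed the test.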

How the results depend on the processing

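The number of members depended on the peaks admitted. It was 85 with peaks of FDR 0.05 or less (18 of them among the members), 146 with FDR 0.1 or less (68 shared), 287 after matching names to the reference, and 28 with at least 5 arrays of 0h and at most 1 at each later time. With peaks over the signal window alone, 142 of the members were chosen again. Leaving out 1 array at a time gave 107 to 390. The limits of the rule stayed the same, so leaving out a 0h array could not raise the count. Leaving out a later array could not lower it. The order of these counts is therefore fixed by the rule, and nothing is read from it. Without carbohydrate 0h replicates 1, 2 and 3 the counts were 158, 107 and 118. Without ethanol 0h replicates 1, 2 and 3 they were 141, 191 and 169. The median change of member signal was −0.26 after scaling the arrays to equal spread, −0.22 after quantile normalization, −0.12 in the window with the highest mean, −0.087 over the mean of the tiled region, −0.14 within animal numbers with 2 times, −0.086 on the slide with 0h and 1h arrays, and 0.17 in the deposited direction, which turns every sign. It was −0.19 to −0.15 with 1 array left out, and −0.25 in the window over the most 0h peaks, an alternative added after seeing the data.

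The count of promoters that differed by diet was 0 under most alternatives, with these exceptions. At 0h it was 1 with array weights and 0 to 2 with 1 array left out. At 1h it was 42 with the run as a term (1 of a member), 5 with the slide as a random block and 0 to 179 with 1 array left out (0 to 6 of members). At 6h it was 2380 with array weights, 24 of them of members (estimation of the array weights stopped with a convergence warning in at least 1 fit), and the change over time gave 107. The cause was not tested. With the replicate number as a block over all arrays, 0 promoters differed in each comparison, but the same numbers did not pair the arrays throughout at 0h and 6h. With the block on the 1h arrays alone, where the number is also the slide, 2 promoters differed at 1h, 0 of them of members; this pairing was added after seeing the data.

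Of 20 named differences, all turned sign in the deposited direction, by construction: 0.57 for Med13, 0.57 for Ppm1a, −0.48 for Tmem126a and −0.47 for Commd10 at 0h; 0.38 for Xdh, 0.32 for Olr59, −0.71 for Trim41 and −0.57 for Cdc73 at 1h; 0.36 for Kcnc2, 0.31 for Zfp330, −0.33 for Usp32 and −0.31 for Rab30 at 6h. Over all times these were 0.17 for Med13, 0.17 for Nfatc2ip, −0.24 for RGD1304704 and −0.20 for Thap4, and for the change over time 0.58 for Ildr1, 0.55 for Gna12, −0.70 for Rybp and −0.66 for Ppm1a. With the highest-mean window, Olr59 became 0.00042, Rab30 −0.03 and Nfatc2ip 0.041. With the mean of the tiled region, Kcnc2 became 0.0074, Nfatc2ip 0.0092 and Gna12 0.065.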
